A study of Mus musculus with 4 samples.

Results

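The Rbfox, Mbnl and Celf genes encode families of RNA-binding proteins that set alternative splicing in muscle, brain and heart. The members are Rbfox1, Rbfox2, Rbfox3, Mbnl1, Mbnl2, Mbnl3, Celf1 and Celf2, taken by exact gene name from the deposited tables, and all 8 were found among the 55487 genes listed. Satellite cells, the stem cells of skeletal muscle marked by Pax7, were isolated from mice and their RNA was sequenced without culture, with 2 libraries from mice with a conditional knockout of Rbfox2 (Rbfox2 cKO) and 2 from Control mice. In the cKO mice Rbfox2 flox alleles were combined with Pax7CreERT2, so that tamoxifen deletes the gene in satellite cells, and with a Rosa26 EYFP allele that labels the cells with a yellow fluorescent protein. The alleles of the Control mice, the age and sex of the animals, the muscles taken and any pooling are not stated in the labels. The promoter of Pax7 limits the deletion to cells that express it, and a gene total does not tell an intact Rbfox2 transcript from one that lacks the deleted segment.

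Rbfox proteins bind the RNA word UGCAUG in introns. As a rule they raise inclusion of an exon that lies upstream of the word and lower inclusion of one that lies downstream of it. Mbnl proteins bind GC steps flanked by pyrimidines through zinc fingers and drive the splicing switches of muscle maturation, and their capture by expanded CUG repeats underlies much of myotonic dystrophy. Celf proteins bind GU-rich words, oppose Mbnl proteins at many shared exons, and also shorten the life of mRNAs that carry such words in the 3′ UTR. The deposited tables hold gene totals, so they show how much RNA of each regulator was present and not which exons it carried.

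The 4 libraries held between 68884091 and 101997422 estimated counts, and both libraries of a group differed by far more than sampling noise. The library codes in the table headers share the part L01 for cKO 1 and Control 1 and the part L02 for cKO 2 and Control 2. The labels do not say what the code stands for. Levels are given as TPM, the abundance of a gene's transcripts per unit of length, with an equal total for all libraries. Low-level signal was highest in cKO 1, which also had the fewest counts: receptor genes of smell (1975 Olfr and Vmn genes) had a median of 0.636 TPM in cKO 1 and 0.230 TPM in cKO 2, against 0.330 and 0.394 TPM in Control 1 and 2. Satellite cell markers were present in all 4 libraries, with Vcam1 at 1301 and 1612 TPM in cKO and 1304 and 1248 TPM in Control, and Pax7 at 15.95 and 13.46 TPM in cKO and 7.90 and 7.00 TPM in Control. Of 12 such markers 0 passed in edgeR, and 1 had an unadjusted p under 0.05, against 2 in limma on TPM. The count change was positive for 5 of the 12, and the median was -0.04, against 0.06 over all genes. It was 0.84 for Pax7 and 0.33 for Fgfr4, and -0.50 for Calcr and -0.32 for Itga7. Calcr stood at 131.5 and 58.5 TPM in Control 1 and 2, against 66.3 and 76.2 TPM in cKO 1 and 2. Among other cell types, 5 of 7 erythroid markers rose in edgeR and 0 in DESeq2, with a summed level of 1800 and 1471 TPM in cKO 1 and 2 against 337 and 764 TPM in Control 1 and 2, and the part of such cells in the levels of the splicing regulators was not tested. Of the markers of other cells in edgeR, 0 of 10 muscle fibre, 6 Schwann cell, 8 endothelial, 6 mural and 7 fibro-adipogenic markers passed, and 1 fibre marker had an unadjusted p under 0.05. In limma on TPM 2 Schwann cell, 3 endothelial and 4 fibro-adipogenic markers had one. Over all 38143 genes tested in edgeR 0.551% were called (0.364% higher in cKO), and 1842 had an unadjusted p under 0.05. In limma on TPM 2572 of 17210 had one, and the median change there was 0.13. The counts of 7 of 10 fibre markers were lower in both cKO libraries than in both Control libraries, against 13.3% of all 38143 genes tested. On TPM the summed fibre markers overlapped between the groups, at 80.5 and 49.2 TPM in cKO 1 and 2 against 82.0 and 77.4 TPM in Control 1 and 2. Summed Schwann cell markers were at 43.4 and 38.3 TPM in cKO against 30.5 and 31.0 TPM in Control, and endothelial markers at 183 and 150 TPM in cKO against 129 and 142 TPM in Control. A lower level in bulk cells can mean fewer cells of a type or less RNA per cell, which these data cannot tell apart.

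The members lie on separate chromosomes except for the Celf pair. On GRCm38, Rbfox2 (ENSMUSG00000033565.18) spans chr15:77078990-77307004 on the minus strand and overlaps 4 other genes, 0 of them at an exon. Rbfox1 (ENSMUSG00000008658.16) spans chr16:5885355-7411526 on the plus strand and Rbfox3 (ENSMUSG00000025576.17) chr11:118489762-118911597 on the minus strand. Mbnl1 (ENSMUSG00000027763.13) spans chr3:60472830-60629750 and Mbnl2 (ENSMUSG00000022139.17) chr14:120275669-120431697, both on the plus strand, and Mbnl3 (ENSMUSG00000036109.17) chrX:51117269-51206532 on the minus strand. Celf1 (ENSMUSG00000005506.16) spans chr2:90940382-91019497 on the plus strand and Celf2 (ENSMUSG00000002107.18) chr2:6539694-7509563 on the minus strand.

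How far reads can be assigned to single members depends on how alike the paralogs are. The most alike coding windows of 60 bases in each family are shown to make this visible, with bases that differ from the first sequence of each family in capitals (GENCODE M21 transcripts on GRCm38, 5′ to 3′ on the coding strand, each inside 1 exon of the transcript with the longest coding sequence). The Rbfox2 window lies in exon 6 (chr15:77105577-77105636, minus strand), that of Rbfox1 in exon 5 (chr16:7292218-7292277, plus strand) and that of Rbfox3 in exon 8 (chr11:118502842-118502901, minus strand).
Rbfox2: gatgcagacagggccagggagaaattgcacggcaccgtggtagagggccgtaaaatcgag
Rbfox1: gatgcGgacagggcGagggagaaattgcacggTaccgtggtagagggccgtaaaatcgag
Rbfox3: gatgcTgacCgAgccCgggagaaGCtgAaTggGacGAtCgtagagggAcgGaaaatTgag
Even there, Rbfox1 differed from Rbfox2 at 3 bases and Rbfox3 at 15, and the longest identical coding run between Rbfox1 and Rbfox2 was 29 bases.

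The Mbnl windows lie in exon 2 of Mbnl1 (chr3:60595609-60595668, plus strand), exon 3 of Mbnl2 (chr14:120379165-120379224, plus strand) and exon 3 of Mbnl3 (chrX:51139294-51139353, minus strand). Those of the Celf pair lie in exon 13 of Celf1 (chr2:91012728-91012787, plus strand) and exon 12 of Celf2 (chr2:6549887-6549946, minus strand).
Mbnl1: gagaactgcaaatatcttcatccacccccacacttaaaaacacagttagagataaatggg
Mbnl2: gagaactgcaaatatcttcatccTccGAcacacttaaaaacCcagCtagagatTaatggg
Mbnl3: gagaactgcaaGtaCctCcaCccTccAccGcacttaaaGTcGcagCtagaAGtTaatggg
Celf1: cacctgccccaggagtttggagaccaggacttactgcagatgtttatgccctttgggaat
Celf2: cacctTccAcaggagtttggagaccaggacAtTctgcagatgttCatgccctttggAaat
The longest identical coding run was 26 bases between Mbnl1 and Mbnl2 and 23 bases between Celf1 and Celf2. Of the words of 50 bases in its annotated transcripts, each Rbfox gene shared 0 with any other gene on either strand, and the Mbnl genes and Celf1 shared at most 0.388%. Celf2 shared 6.96%, all with Gm26565, a noncoding gene on the opposite strand that held 3 and 0 counts in cKO 1 and 2 and 5 and 65 counts in Control 1 and 2.

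Rbfox2, the deleted gene, was the only member called on counts, and it was not called on TPM. Its level was 20.87 and 12.16 TPM in cKO 1 and 2, against 49.45 and 27.39 TPM in Control 1 and 2. Both cKO libraries lay below both Control libraries, although Control 2 stood nearer to cKO 1 than to Control 1. Between libraries of the same code, the TPM of Rbfox2 in cKO was 42.2% of Control for L01 and 44.4% for L02. The mean of 16.5 ± 6.16 TPM in cKO was 43.0% of the 38.4 ± 15.6 TPM in Control (SD, n = 2 each). On normalised counts (CPM, counts scaled by the TMM library size) the levels were 40.04 and 15.17 in cKO and 131.3 and 55.98 in Control, and the mean in cKO was 29.5% of that in Control. The count fell by 1.76 on the log2 scale (SE 0.35, adjusted p = 0.000252 over all genes with edgeR). Of the 8 members 1 was called lower and 0 higher, where 0.551% of all 38143 genes tested were called, 0.186% as lower and 0.364% as higher. In limma on log2(TPM + 1) the change of Rbfox2 was -1.16 (SE 0.35, adjusted p = 0.237), and 0 of the 7 members with a mean TPM of at least 1 were called, against 0.308% of 17210 genes (0.209% higher and 0.0988% lower). At an unadjusted p under 0.05 there were 2 members, Rbfox2 and Celf1, and 2572 of the 17210 genes. The count call was lost without any 1 library, with log2 fold changes of -2.61 without cKO 1, -1.29 without cKO 2, -1.04 without Control 1 and -2.28 without Control 2. The TPM change reached the threshold without Control 2 (-1.57, adjusted p = 2.58e-08) and with the replicate number as a block (-1.16, adjusted p = 0.036), where the adjusted p over all alternatives ran from 2.58e-08 to 0.511.

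**Figure D1:**
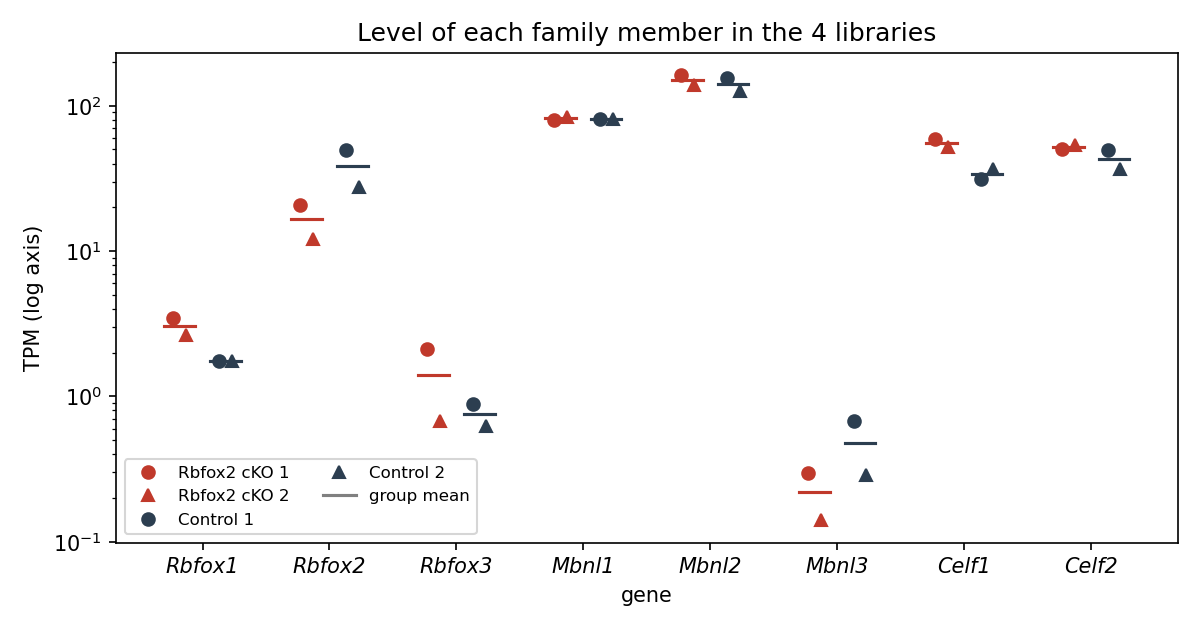
Level in TPM on a log axis of each of the 8 genes in the 4 libraries, with Rbfox2 cKO on the left and Control on the right of each gene and bars at the group means. Rbfox2 stands at 20.87 and 12.16 TPM in cKO and 49.45 and 27.39 TPM in Control, and Celf1 at 59.13 and 52.20 TPM in cKO and 31.53 and 36.65 TPM in Control, while the points of Mbnl1 overlap.

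The Rbfox2 libraries also differed in mean transcript length. The count of a gene divided by its TPM is proportional to the mean length of the transcripts to which its coverage was assigned, and genes with a single annotated transcript set the scale in nucleotides (nt). By this measure Rbfox2 transcripts averaged 4354 and 1945 nt in cKO 1 and 2, against 4453 and 3476 nt in Control 1 and 2. The cKO 2 value stood alone: the log2 gap between both cKO libraries was 1.16, and 0.539% of 24137 genes had a larger one, while the gap between both Control libraries was 0.36. GENCODE lists 12 coding transcripts of Rbfox2 in separate length groups, 10 from 482 to 3072 nt and 2 of 6573 and 6907 nt that carry a 3′ UTR of 5174 and 5175 nt. The mean in cKO 2 lay within the range of the short group, and the means of the other 3 libraries lay between the groups. Between the genotypes the length difference was -0.42 on the log2 scale (SE 0.52, adjusted p = 0.887 in limma), smaller than its own error, and it was 0.17 without cKO 2. With each library's mean length taken out of the count, Rbfox2 fell by 1.42 on the log2 scale (adjusted p = 0.0105 in edgeR, where the alternatives ran from 0.000915 to 1).

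**Figure D2:**
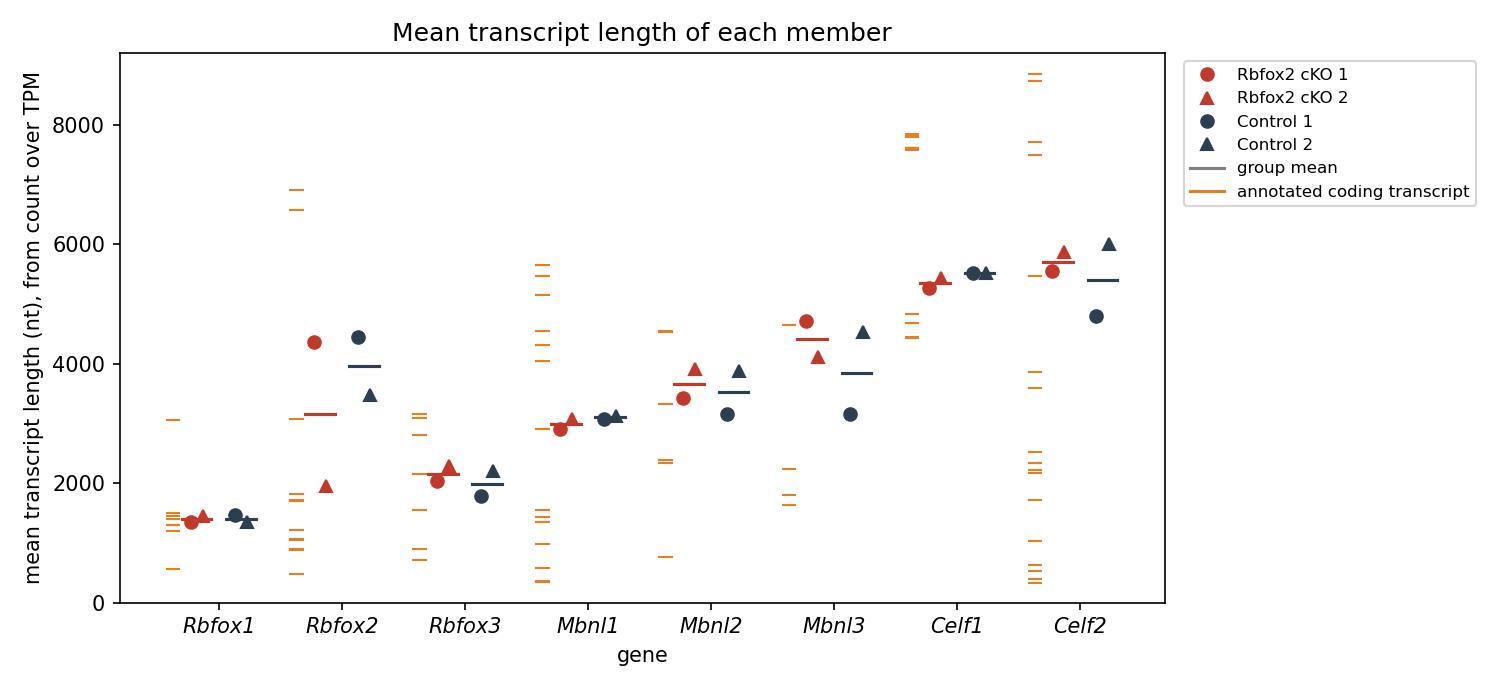
Mean transcript length in nucleotides, from the count over the TPM, of each gene in the 4 libraries, with Rbfox2 cKO on the left, Control on the right, bars at the group means and short ticks at the lengths of the annotated coding transcripts. Rbfox2 in cKO 2 stands at 1945 nt, below the 4354 nt of cKO 1 and the 4453 and 3476 nt of Control.

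The paralogs Rbfox1 and Rbfox3, which act mainly in neurons and, for Rbfox1, in heart and mature muscle, stayed far below Rbfox2 in every library. Rbfox1 stood at 3.45 and 2.62 TPM in cKO 1 and 2, against 1.74 and 1.75 TPM in Control 1 and 2, with both cKO libraries higher. The difference was 0.63 on the log2 scale by count (SE 0.44, adjusted p = 1 in edgeR) and 0.55 by TPM (SE 0.26, adjusted p = 0.364 in limma), and neither passed. Rbfox3, known as the neuronal nuclear antigen NeuN, stood at 2.11 and 0.680 TPM in cKO and 0.892 and 0.629 TPM in Control. Its groups overlapped on TPM. On normalised counts they did not, at 1.884 and 0.9971 CPM in cKO and 0.9455 and 0.8126 CPM in Control. By count its difference was 0.71 (SE 0.53, adjusted p = 1 in edgeR), and it was 0.19 without cKO 1. The higher Rbfox3 value in cKO 1 stands beside the higher olfactory receptor signal in that library. Neuronal markers were low as well, with Snap25 at 1.60 and 0.745 TPM in cKO and 0.749 and 1.08 TPM in Control, and 0 of 10 passed in edgeR, with 0 at an unadjusted p under 0.05. Of these markers Map2 held most of the summed level, which was 78.6 and 75.7 TPM in cKO and 68.8 and 65.3 TPM in Control. Their part in the Rbfox1 and Rbfox3 values was not tested.

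Summed over the 3 genes, Rbfox RNA stood at 26.4 and 15.5 TPM in cKO 1 and 2, against 52.1 and 29.8 TPM in Control 1 and 2. Rbfox2 held 79.0% and 78.6% of that sum in cKO, against 94.9% and 92.0% in Control. The share of Rbfox1 was 13.0% and 17.0% in cKO and 3.35% and 5.88% in Control. These shares move with the fall of Rbfox2 itself, and no test of them was made.

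Mbnl1 and Mbnl2, the main muscleblind proteins of muscle and brain, were the most abundant members and did not pass in either test. Mbnl2 stood at 162 and 139 TPM in cKO 1 and 2, against 154 and 126 TPM in Control 1 and 2. Mbnl1 stood at 79.2 and 84.1 TPM in cKO, against 80.4 and 80.7 TPM in Control. The groups of both genes overlapped, and the TPM change was 0.02 for Mbnl1 (SE 0.12, adjusted p = 0.954 in limma) and 0.10 for Mbnl2 (SE 0.14, adjusted p = 0.773). For comparison, the median over all genes in that test was 0.13. The count of Mbnl1 depended on the cKO libraries, at 0.18 on the log2 scale without cKO 1 and -0.61 without cKO 2. The second of these passed (adjusted p = 0.0427 in edgeR, where the alternatives ran up to 1), in a fit that called 2016 genes lower and 251 higher of 42059. Mbnl3, an X-linked member with a narrower expression in development, was barely detected, at 0.299 and 0.140 TPM in cKO and 0.675 and 0.287 TPM in Control. These values are near the olfactory receptor medians, and its count difference was -1.04 (SE 0.61, adjusted p = 1 in edgeR). The sum of the Mbnl genes was 242 and 223 TPM in cKO and 235 and 207 TPM in Control. Mbnl2 held between 60.9% and 67.1% of it in every library.

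Celf1, the GU-binding regulator of splicing and mRNA decay that is raised in myotonic dystrophy, was higher in both cKO libraries. It stood at 59.1 and 52.2 TPM in cKO 1 and 2, against 31.5 and 36.7 TPM in Control 1 and 2. The mean of 55.7 ± 4.91 TPM in cKO was 163% of the 34.1 ± 3.62 TPM in Control (SD, n = 2 each). On TPM the groups were further apart than the libraries within them. On normalised counts Celf1 stood at 137 and 181.9 CPM in cKO 1 and 2, against 103.7 and 118.9 CPM in Control 1 and 2. There the cKO libraries were further apart than the groups, and the mean in cKO was 143% of that in Control. The TPM change was 0.69 on the log2(TPM + 1) scale (SE 0.14, unadjusted p = 0.00152, adjusted p = 0.102 in limma), and the count change was 0.52 (SE 0.35, adjusted p = 1 in edgeR). Neither passed the threshold over all genes. It was passed in limma without a filter on low TPM (0.69, adjusted p = 0.027) without Control 2 (0.80, adjusted p = 0.00712) and with the replicate numbers crossed (0.69, adjusted p = 0.00788), where the adjusted p over all alternatives ran from 0.00712 to 0.296. In edgeR it was passed without cKO 1 (0.72, adjusted p = 0.00888) and with library totals alone (0.65, adjusted p = 0.037, a scaling under which the median gene moved by 0.25), where the range was 0.00888 to 1. Without cKO 2 the count change was 0.23. Between libraries of the same code, the TPM of Celf1 in cKO was 188% of Control for L01 and 142% for L02. By CPM it was 132% for L01 and 153% for L02. The mean length of Celf1 transcripts was 5258 and 5432 nt in cKO, against 5516 and 5517 nt in Control. Both cKO values were lower, by 0.03 on average on the log2 scale (adjusted p = 0.887 in limma), which did not pass.

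Celf2 stood close to Celf1, at 50.6 and 53.8 TPM in cKO 1 and 2, against 49.3 and 37.0 TPM in Control 1 and 2. Both cKO libraries were higher, cKO 1 by a small margin over Control 1, and the TPM change of 0.28 (SE 0.16, adjusted p = 0.464 in limma) did not pass. On counts the groups overlapped, with a difference of 0.26 (SE 0.35, adjusted p = 1 in edgeR) that was 0.59 without cKO 1 (adjusted p = 0.0378, where the alternatives ran up to 1) and -0.20 without cKO 2. The fit without cKO 1 called 606 genes higher and 290 lower of 39712. Celf2 is also abundant in lymphocytes, and the summed level of 8 immune markers was 59.5 and 45.2 TPM in cKO and 32.4 and 42.3 TPM in Control, with Ptprc, the pan-leukocyte marker, at 2.92 and 1.06 TPM in cKO and 1.19 and 2.03 TPM in Control. In edgeR 0 of these 8 passed and 1 had an unadjusted p under 0.05, and in limma on TPM 1 had one. The part of immune cells in the Celf2 level was not tested. The sum of both Celf genes was 110 and 106 TPM in cKO and 80.9 and 73.6 TPM in Control.

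**Figure D3:**
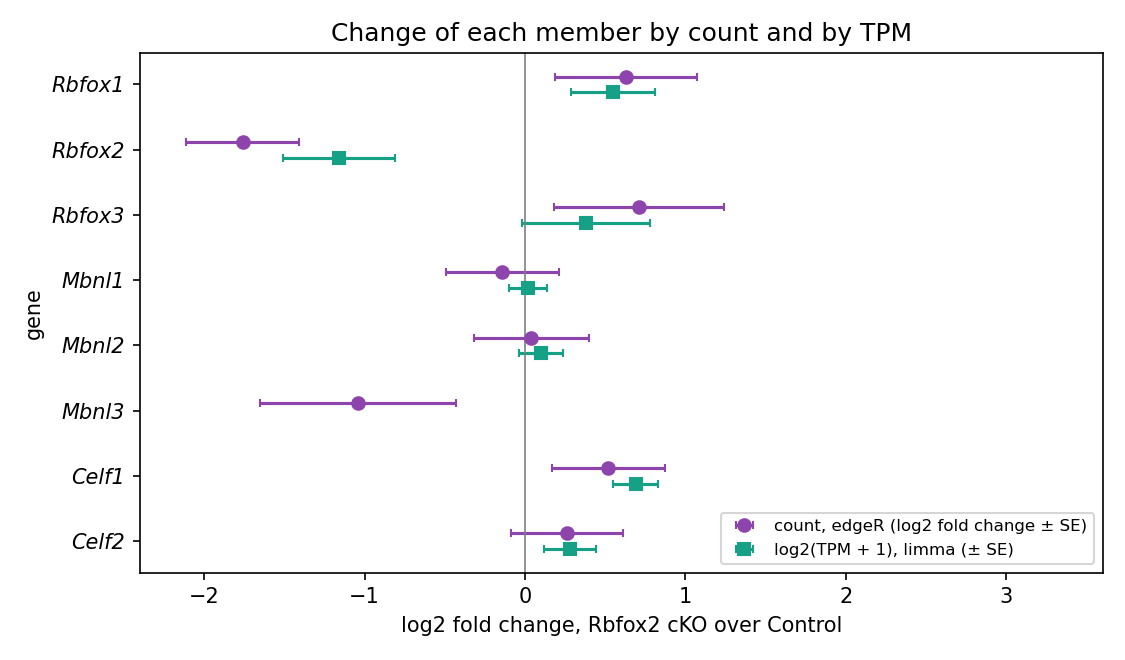
Log2 fold change of each gene, Rbfox2 cKO over Control, by count in edgeR (circles) and by log2(TPM + 1) in limma (squares), with bars of 1 SE. Rbfox2 stands at -1.76 by count and -1.16 by TPM, Celf1 at 0.52 and 0.69, and Mbnl3 has no TPM value because its mean TPM was under 1.

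The order of the members by TPM differed between the genotypes only in its middle. In cKO it ran Mbnl2, Mbnl1, Celf1, Celf2, Rbfox2, Rbfox1, Rbfox3 and Mbnl3, where Celf1 and Celf2 overlapped and Rbfox2 lay below both in each library. In Control it ran Mbnl2, Mbnl1, Celf2, Rbfox2, Celf1, Rbfox1, Rbfox3 and Mbnl3, where the libraries of Rbfox2 spanned those of Celf1 and Celf2. The ratio of Rbfox2 to Celf1 TPM was 0.353 and 0.233 in cKO 1 and 2, against 1.57 and 0.747 in Control 1 and 2. For Rbfox2 to Mbnl1 it was 0.264 and 0.145 in cKO, against 0.615 and 0.340 in Control. Among protein-coding genes Mbnl2 ranked between percentiles 95.5 and 96.5 in the 4 libraries and Rbfox1 between 52.1 and 56.1.

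Across the family, 5 of 8 members had counts that did not overlap between the groups, higher in cKO for Rbfox1, Rbfox3 and Celf1 and lower for Rbfox2 and Mbnl3, where 31.3% of all genes tested did not overlap (18% higher and 13.3% lower in cKO). By TPM it was 4 of 7, with Rbfox1, Celf1 and Celf2 higher and Rbfox2 lower, against 47.8% of genes (32% higher and 15.7% lower). By mean transcript length it was 1 of 8, Celf1, lower in cKO, against 35.5% of genes (12.8% higher and 22.7% lower). In limma 0 members were called for length, against 0.0373% of genes (0.0166% higher and 0.0207% lower). An unadjusted p under 0.05 was found for 0 members and for 1362 of 24137 genes. The next largest gap between libraries of a group after that of Rbfox2 was 0.52, for the low Mbnl3 in Control.

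**Figure D4:**
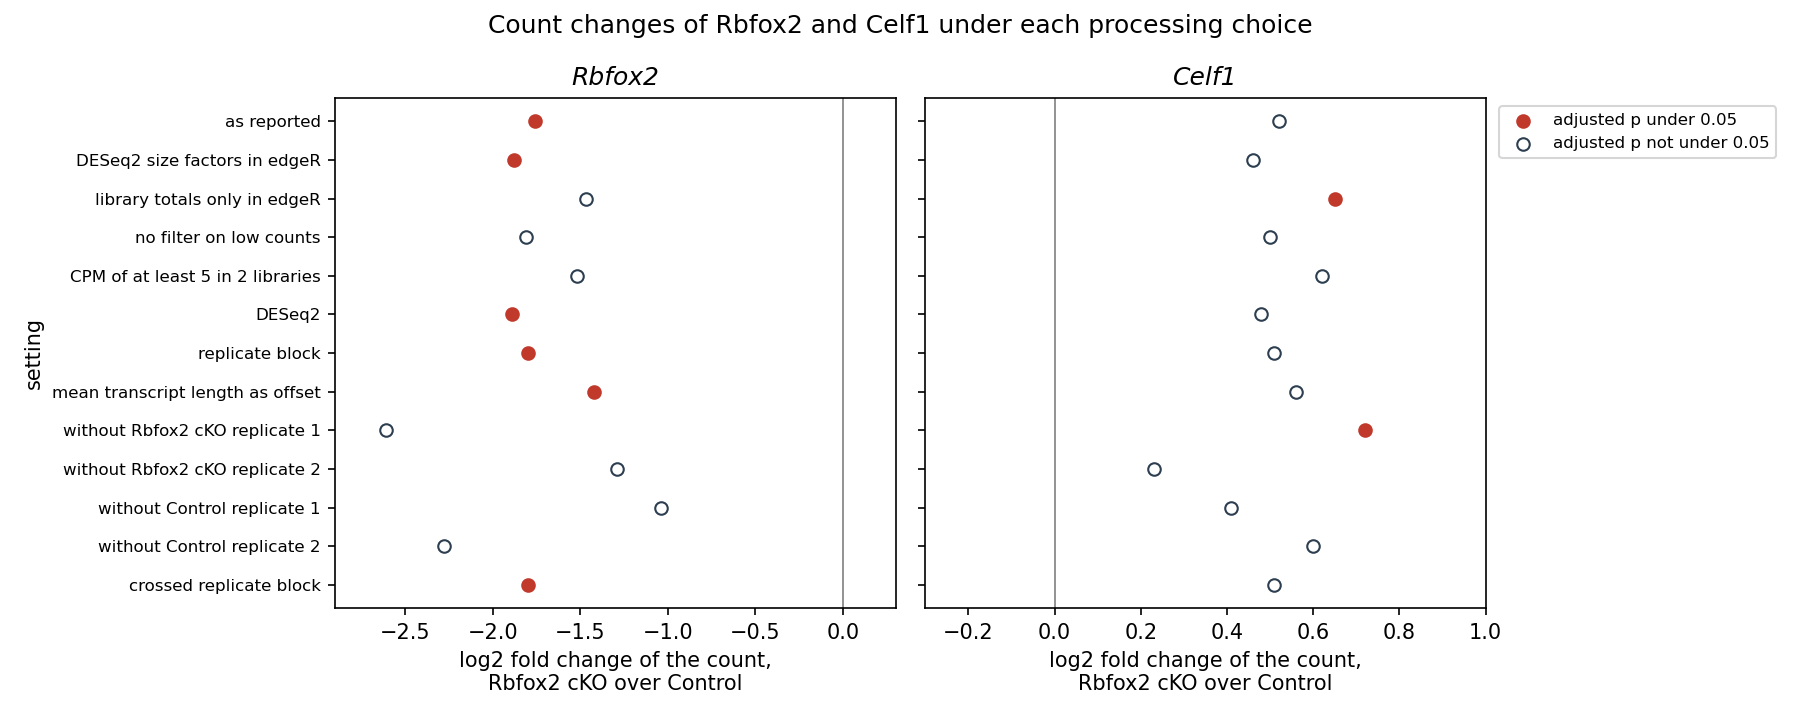
Log2 fold change of the count, Rbfox2 cKO over Control, of Rbfox2 (left) and Celf1 (right) as reported and under each alternative. Filled points have an adjusted p under 0.05: Rbfox2 stays negative, from -2.61 to -1.04, and Celf1 positive, from 0.23 to 0.72, while the fill of the points changes with the setting.

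The genes whose pattern over the 4 libraries was most like that of Rbfox2 were Kif2a, Abl2, Mgat1, Pakap and Ttbk2, out of 5975 protein-coding genes whose CPM averaged 16 or more. Likeness was the Euclidean distance of log2 CPM values centred on each gene's mean. It was 0.80 for Kif2a, a kinesin that takes microtubules apart, and 1.12 for Ttbk2, a kinase needed to build cilia, against a median of 2.31. Kif2a stood at 20.4 and 9.19 CPM in cKO 1 and 2 and 42.6 and 37.5 CPM in Control 1 and 2. Like Rbfox2, all 5 were lowest in cKO 2 and highest in Control 1, an order that the choice itself favours, so no test is given.

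Other regulators and partners of these families did not pass in edgeR, nor in DESeq2. Calls were rare over all genes too: edgeR called 0.551% of 38143 genes and DESeq2 called 93 genes. An unadjusted p under 0.05 was found in edgeR for 1842 of the 38143. Of the 4 remaining Celf genes, which act mainly in the nervous system, 0 passed and 0 had an unadjusted p under 0.05, and Celf4 was the highest of them at 4.86 and 3.32 TPM in cKO 1 and 2 and 2.55 and 3.93 TPM in Control 1 and 2. Of 8 proteins found in a complex with Rbfox proteins 0 passed and 0 had an unadjusted p under 0.05 in edgeR, 1 had a positive log2 fold change, and the median was -0.11, against 0.06 over all genes. In limma on TPM 1 had an unadjusted p under 0.05, where 2572 of 17210 genes had one. Hnrnpc, an abundant nuclear RNA-binding protein, stood at 444 and 498 TPM in cKO and 620 and 589 TPM in Control, a count change of -0.47 (SE 0.38, adjusted p = 1 in edgeR). The count change was -0.13 for the helicase Ddx5 and -0.04 for Hnrnph1, which binds G-rich RNA, a sign that turned with library totals alone. Of 24 other tissue-restricted or muscle splicing regulators 0 passed and 2 had an unadjusted p under 0.05 in edgeR, 12 were positive and the median was 0.01. In limma on TPM 2 had an unadjusted p under 0.05. Ptbp1, the repressor of neuronal and muscle exons, stood at 356 and 232 TPM in cKO and 252 and 229 TPM in Control, a count change of 0.03 that was -0.04 with DESeq2 size factors. For Qk, a regulator of myelin and muscle exons, the count change was -0.35 and for Srsf10 it was -0.22. Without cKO 2, where 2016 genes were called lower and 251 higher against 71 lower and 139 higher with all libraries, Hnrnpc (-0.95), Ddx5 (-0.63), Qk (-0.97) and Srsf10 (-0.70) passed in edgeR. Without cKO 1 the values were -0.14, 0.22, 0.06 and 0.11 in the same order.

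Genes whose exons these proteins are known to set did not pass as totals either, where edgeR called only 0.551% of all 38143 genes tested. An unadjusted p under 0.05 was found in edgeR for 1842 of the 38143. Of 22 genes with exons set by Mbnl and Celf proteins 0 passed in edgeR and 3 had an unadjusted p under 0.05, 15 were positive and the median was 0.18. In limma on TPM 3 had an unadjusted p under 0.05, where 2572 of 17210 genes had one. Camk2d, a calcium-dependent kinase of muscle and heart, stood at 60.6 and 58.4 TPM in cKO 1 and 2 and 29.3 and 42.2 TPM in Control 1 and 2, a count change of 0.76 (SE 0.34, adjusted p = 0.839 in edgeR). The count change was -0.29 for Capzb, which caps actin filaments, and 0.16 for Bin1, which shapes the membrane of T-tubules. Without cKO 1 Camk2d passed (0.91, adjusted p = 0.0493 in edgeR), and without cKO 2 Capzb did (-0.63, adjusted p = 0.0342), where the alternatives of both ran up to 1. Of 20 genes with exons set by Rbfox proteins 0 passed in edgeR and 0 had an unadjusted p under 0.05, 10 were positive and the median was 0. In limma on TPM 3 had an unadjusted p under 0.05. The count change was 0.07 for Slc25a3, the mitochondrial phosphate carrier, -0.32 for Itga7, a laminin receptor of satellite cells, and -0.21 for Fxr1, an RNA-binding protein of muscle. Numb, a Notch inhibitor given here because the study's title names it, stood at 37.7 and 34.3 TPM in cKO and 39.2 and 37.4 TPM in Control. For mean transcript length in limma 0 of 22 and 0 of 19 tested members of these lists were called, against 0.0373% of all genes tested. An unadjusted p under 0.05 was found for 2 of each, against 1362 of 24137 genes. Gene totals and mean lengths do not resolve a single exon, so they do not measure the splicing of these genes. Of 9 genes that carry myotonic dystrophy repeats, lie beside one or work with Celf1 0 passed in edgeR and 0 had an unadjusted p under 0.05, with a median of 0.14. In limma on TPM 2 had an unadjusted p under 0.05. Dmpk, whose repeat captures Mbnl proteins in human disease, stood at 48.1 and 24.0 TPM in cKO and 22.4 and 34.2 TPM in Control. The count change was -0.43 for Cnbp, the other repeat-bearing gene, and -0.23 for Cdk4. Without cKO 2 Cnbp passed (-0.71, adjusted p = 0.0167 in edgeR, where the alternatives ran up to 1).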

How the data were processed

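Per the labels' protocols, RNA from a low-input column kit was made into SMART-Seq cDNA and MGI libraries. HISAT2 2.1.0 and StringTie 1.3.6 were used on GRCm38 in some order, per the submitters' processing notes. No strand setting, annotation or filter is stated. The authors deposited estimated counts, already whole numbers, and TPM per gene. For single-transcript genes matched with version and over 200 counts, count over TPM and annotated length was one constant per library (100% within 1%), so counts and TPM are not independent. That constant turned count over TPM into mean length. GENCODE M21 matched 55394 of 55487 identifiers without version.

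Counts were compared with edgeR 4.0.16 (TMM, filterByExpr, robust quasi-likelihood test), log2(TPM + 1) for mean TPM of at least 1 and log2(count over TPM) for counts of at least 20 with limma 3.58.1, in R 4.3.3, all 4 libraries, no covariate, Benjamini-Hochberg over all genes, threshold 0.05. The SE in edgeR is the fold change over the square root of F. All 8 members passed the edgeR filter. The spread between libraries limits precision (common biological coefficient of variation 0.373), and no label states separate animals: p-values cover only the spread of these 4 samples, possibly technical. Scripts were tested on simulated data. Members and lists were chosen with earlier results of these data known. Named from each list of regulators and targets were called genes (up to 4), or otherwise the 3 highest by TPM; cell type markers and Numb were picked after values were seen. The 5 genes most like Rbfox2 were named by distance. DESeq2 1.42.0 was an alternative.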

Additional observations from a re-analysis of the deposited data

How the results depend on the processing

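With 2 libraries per group the spread between them limits these comparisons, and the part of depth was not tested. Of 202 values of the members under alternatives, 170 kept direction and side of the threshold, 7 lost the threshold (all Rbfox2 counts), 9 gained it and 16 changed sign. Where not stated, the cause was not tested. In edgeR 210 genes were called, against 119 with DESeq2 size factors, 28 without the low-count filter, 14 where CPM reached 5 in 2 libraries, 93 in DESeq2 and 96 with a replicate block, and from 51 to 2267 with 1 library left out (51 without Control 1, 56 without Control 2, 896 without cKO 1, 2267 without cKO 2, of which 2016 lower and 251 higher). In limma on TPM 53 were called, against 102 with a pseudocount of 0.1, 404 with no filter and from 18 to 608 with 1 library left out (18 without cKO 1, 92 without cKO 2, 429 without Control 1, 608 without Control 2), where the lone library is assumed to vary like the other group. For mean transcript length 9 were called, against 0 with a count of at least 100, 0 with a replicate block, 0 with each library left out in turn and 0 with crossed numbers, where 1001 to 2375 genes had an unadjusted p under 0.05. Rbfox2 lost its count call with library totals alone (-1.47), with no filter (-1.81) and where CPM reached 5 in 2 libraries (-1.52). It kept it with the replicate block (-1.80, adjusted p = 0.0188). The labels do not say that numbers pair the libraries, although same-numbered libraries share a code part (L01 or L02) of unstated meaning, and deviations of same-numbered libraries correlated at -0.12 over genes. Crossed numbers, added after the data were seen, gave 243 calls on counts and 887 on TPM.

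Signs turned with DESeq2 size factors for Mbnl2 (-0.02), Celf6 (-0.02) and Ptbp1 (-0.04), in DESeq2 for Celf6 (-0.02) and Ptbp1 (-0.03), with library totals for Hnrnph1 (0.06), where CPM reached 5 for Hnrnph1 (0.03), and with length as an offset for Mbnl2 (-0.05), Celf6 (-0.18) and Hnrnph1 (0.19). With 1 library left out, count changes ran from -0.61 to 0.18 for Mbnl1, -0.31 to 0.28 for Mbnl2, -0.20 to 0.59 for Celf2, -0.24 to 0.47 for Celf3, -0.09 to 0.76 for Celf4, -0.44 to 0.40 for Celf6, -0.63 to 0.22 for Ddx5, -0.59 to 0.33 for Hnrnph1, -0.08 to 0.11 for Ptbp1, -0.70 to 0.11 for Srsf10, -0.97 to 0.06 for Qk, -0.09 to 0.33 for Bin1, -0.32 to 0.35 for Slc25a3, -0.58 to 0.06 for Fxr1, -0.13 to 0.42 for Dmpk and -2.19 to 0.21 for Pakap. TPM changes ran from -0.02 to 0.06 for Mbnl1 and -0.04 to 0.25 for Mbnl2. Length changes ran from -0.05 to 0.07 for Rbfox1, -1.01 to 0.17 for Rbfox2, -0.02 to 0.29 for Rbfox3, -0.07 to 0.22 for Mbnl2, -0.03 to 0.49 for Mbnl3 and -0.06 to 0.26 for Celf2.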
